A study of Pogonatum aloides with 7 samples.

Results

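The stage 1 capsule of the moss Pogonatum aloides, labelled as small and the first of 5 numbered capsule stages, was compared with the young gametophyte, whose labels describe it as seedlings. Both samples are wild type, total RNA was taken with TRIzol in both, and the design text names the gametophyte as the control. Unigenes, the sequences assembled from the reads, were joined by identifier and kept where either library reached 1 RPKM, a read count scaled to sequence length and library total. This kept 51610 of the 74566 unigenes in the 6 libraries analysed here, and 16245 reached 10 RPKM. A pooled sample of capsules and gametophytes, the seventh of the series, was not analysed here.

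A moss lives in alternating generations. The green, haploid gametophyte is the free-living plant and bears the sex organs, and the diploid sporophyte grows on it after fertilisation, draws water and nutrients from it, and ends in the capsule in which spores form by meiosis. In hair-cap mosses, the family of Pogonatum, the young capsule stands under a hairy calyptra, a cap of gametophyte tissue. Whether the calyptra was removed before extraction is not given in the sources used here, nor is the number of plants behind either library. The files give 0 of the unigenes a gene name, so neither organ could be checked against marker genes and no pathway can be named. In whole organs, fewer cells of a type and less RNA per cell cannot be told apart. With 1 library a side there is no replicate check, and organ and library cannot be told apart.

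The stage 1 library listed 42752 unigenes and the gametophyte 46680. Reads worked back from the RPKM steps, called recovered reads here, gave library totals of 5751812 for stage 1 and 3821669 for the gametophyte. Totals of the other 4 capsule libraries lay between 5458335 and 5752394. At these depths 3 reads on a sequence of 1 kb amount to 0.522 RPKM in the capsule library and to 0.785 RPKM in the other. On these totals the gametophyte was the shallower library, and yet it listed more unigenes. A multiple of a total gives whole reads too, and the smallest was taken, so statements on depth here rest on that choice. Its summed RPKM was also larger, at 842055 against 664529, since RPKM sums rise as reads fall on shorter sequences. Abundance was spread alike in both. The 100 most abundant unigenes took 19.0% of the summed RPKM in stage 1 and 20.3% in the gametophyte, and 50% of the sum was reached with 1089 and 1226 unigenes.

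The libraries differed first in which unigenes they listed at all. Of the 51610 unigenes, 23533 (45.6%) were listed in both, 9425 (18.3%) in stage 1 only and 18652 (36.1%) in the gametophyte only. At 10 RPKM the imbalance was larger: 9087 (55.9%) were in both, 773 (4.76%) in stage 1 only and 6385 (39.3%) in the gametophyte only. At 100 RPKM the counts were 1564, 40 and 334. With no minimum, 16073 unigenes were in stage 1 only and 20001 in the gametophyte only, so the size of the imbalance depends on the minimum. At 1 RPKM, unigenes not listed in stage 1 held 33.3% of the gametophyte's summed RPKM. Those not listed in the gametophyte held 7.91% of that of stage 1. Counted as recovered reads, which are not scaled to length, these shares were 16.7% and 4.22%. The gametophyte's share was the larger on both scales.

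Most of the unigenes listed on 1 side were short and thinly read. Median recovered lengths were 739 bases for unigenes in both, 309 for stage 1 only and 282 for the gametophyte only. Lengths and reads that rest on a single library can be underestimated, and most unigenes of that kind here were in the gametophyte only. At least 20 reads in either library lay behind 12424 of the 23533 unigenes in both, 1210 of the 9425 in stage 1 only and 4510 of the 18652 in the gametophyte only. Of those in the gametophyte only, 1172 rested on 1 read, and of those in stage 1 only 0. At these totals 1 read on a short sequence can reach 1 RPKM in the gametophyte and not in stage 1. A dash in 1 library therefore often means not detected at this depth. Thinning the stage 1 reads at random to the gametophyte's total and asking for 20 reads left 795 unigenes in stage 1 only and 4571 in the gametophyte only, an alternative added after seeing the data.

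Among the 23533 unigenes in both libraries, levels were set side by side as the ratio of RPKM + 1, which understates the ratio of low unigenes. A ratio of 2 or more in favour of stage 1 was found for 6729 (28.6%) and in favour of the gametophyte for 3672 (15.6%), with 13132 (55.8%) between. At 4-fold the counts were 2060 (8.75%) and 1383 (5.88%). The median log2 ratio was 0.35, with quartiles of -0.55 and 1.13, so the middle of the shared unigenes sat above 0 in favour of stage 1. That excess depends on scaling. Of all 2-fold differences in both libraries, 64.7% were higher in stage 1 as deposited, against 50.7% after scaling by a trimmed mean of ratios (TMM) and 48.5% after median-ratio scaling. The factors of these scalings shift stage 1 against the gametophyte by -0.36 and -0.41 in log2, and the ratios of RPKM + 1 by less where levels are low. With TMM the counts were 5026 higher in stage 1 and 4890 higher in the gametophyte, and with median-ratio scaling 4806 and 5112. Which side holds more of the differing shared unigenes is therefore not settled by these values.

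Counting error was taken from an exact 95% interval of the read ratio, which covers counting error only and not the spread between plants or libraries. The whole interval lay beyond 2-fold for 3354 shared unigenes (14.3%) toward stage 1 and 1927 (8.19%) toward the gametophyte. Among the 9087 shared unigenes that reached 10 RPKM, a 2-fold ratio was found for 3511 (38.6%) toward stage 1 and 1836 (20.2%) toward the gametophyte, and the interval lay beyond 2-fold for 2555 (28.1%) and 1480 (16.3%). Here 65.7% of the 2-fold differences were higher in stage 1 as deposited and 51.6% with TMM. At 4-fold, 1552 (17.1%) and 1042 (11.5%) were past the fold, and at 16-fold 207 (2.28%) and 234 (2.58%). As deposited, the far ends of the distribution were thus nearly alike in size on both sides. Of all 23533 shared unigenes, 706 fell short of the 2-fold line toward stage 1 by up to 0.1 in log2 and 659 were past it by up to 0.1, and toward the gametophyte these counts were 451 and 313.

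With the unigenes listed in 1 library included, 16154 of 51610 (31.3%) were at least 2-fold higher in stage 1 and 22324 (43.3%) in the gametophyte. Every unigene of 1 RPKM or more passes this fold against a dash by construction, so these totals mix ratios with listing. At 10 RPKM the same counts were 4284 (26.4%) and 8221 (50.6%) of 16245. For scale, stage 3, another capsule labelled as small, differed from stage 1 by 2-fold or more in either direction for 6549 of 30815 unigenes listed in both (21.3%), against 10401 of 23533 (44.2%) between stage 1 and the gametophyte. Stage 3 listed 94.5% of these 23533 unigenes, against 83.0%, 79.3% and 84.3% in stages 2, 4 and 5. A like count was not made here for those stages, so the spread between capsules may be larger. Both comparisons use the same stage 1 library, and the gametophyte differs from the capsules in depth as well as in organ.

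**Figure D1:**
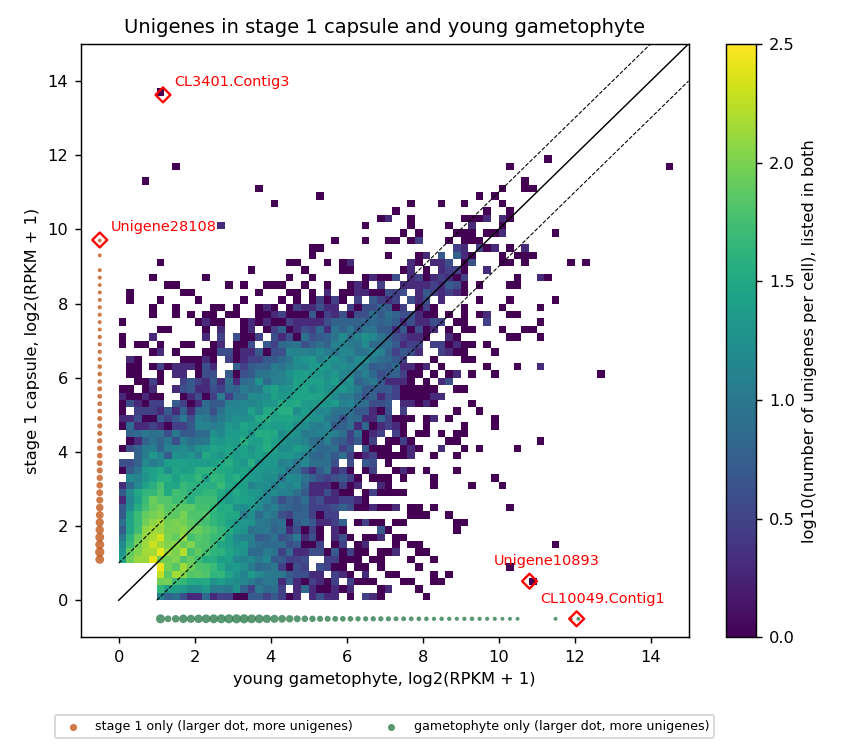
Levels of unigenes with 1 RPKM or more in either library, as log2(RPKM + 1) in the young gametophyte (horizontal axis) and in the stage 1 capsule (vertical axis). Colour gives the log10 number of unigenes in both libraries per cell of the grid, and dots in the margins give unigenes listed in 1 library only, with larger dots for more unigenes. The shared unigenes lie along the diagonal with a median log2 ratio of 0.35, and the margin of the gametophyte holds 18652 unigenes against 9425 for stage 1.

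How the libraries differed changed with abundance. Among shared unigenes whose higher level lay between 30 and 100 RPKM, 39.1% were at least 2-fold higher in stage 1 and 17.1% in the gametophyte. Between 100 and 300 RPKM, 485 and 234 of 1170 shared unigenes were past 2-fold. From 300 to 1000 RPKM they were near each other, at 28.5% and 31.5%. Among the 89 shared unigenes of 1000 RPKM or more the order was the other way, with 25.8% higher in stage 1 and 48.3% higher in the gametophyte, and a median log2 ratio of -0.67. TMM scaling kept the order in these 4 classes, giving 23.3% and 34.8% from 300 to 1000 RPKM and 22.5% and 50.6% above. In the 2 lowest classes it turned the order. At 1 to 2 RPKM the shares went from 4.19% and 1.94% to 1.63% and 5.01%. At 2 to 5 RPKM, over 6848 shared unigenes, 23.3% and 13.3% as deposited became a larger share for the gametophyte, at 20.7%. At the top of the range the gametophyte thus stood higher more often, and in the middle of it stage 1 did, both as deposited and with TMM. Median-ratio scaling was not run by class. Classes were set by the higher of the 2 levels compared, which favours the side through which more unigenes enter. In all, 67 unigenes reached 1000 RPKM in the gametophyte and 42 in stage 1, so the order in the top class partly restates this.

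Listing in 1 library followed abundance in another way. Unigenes in the gametophyte only made up 52.9% of those at 5 to 10 RPKM and 51.5% at 10 to 30 RPKM, and then 22.4% at 30 to 100 RPKM. Of the 96 unigenes that reached 1000 RPKM, 7 were in the gametophyte only and 0 in stage 1 only. Unigenes in stage 1 only were most frequent in the lowest class, at 38.3% of those at 1 to 2 RPKM, and made up 5.8% at 10 to 30 RPKM. The lowest class had a median length of 328 bases. In the gametophyte 3 reads amount to 0.785 RPKM on 1 kb and to more on shorter sequences, so a dash in this class can mean not detected at this depth. Of the unigenes next to the lower limit, 964 had a higher level of 0.9 to 1 RPKM and stayed out, and 1084 of 1 to 1.1 RPKM were kept.

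**Figure D2:**
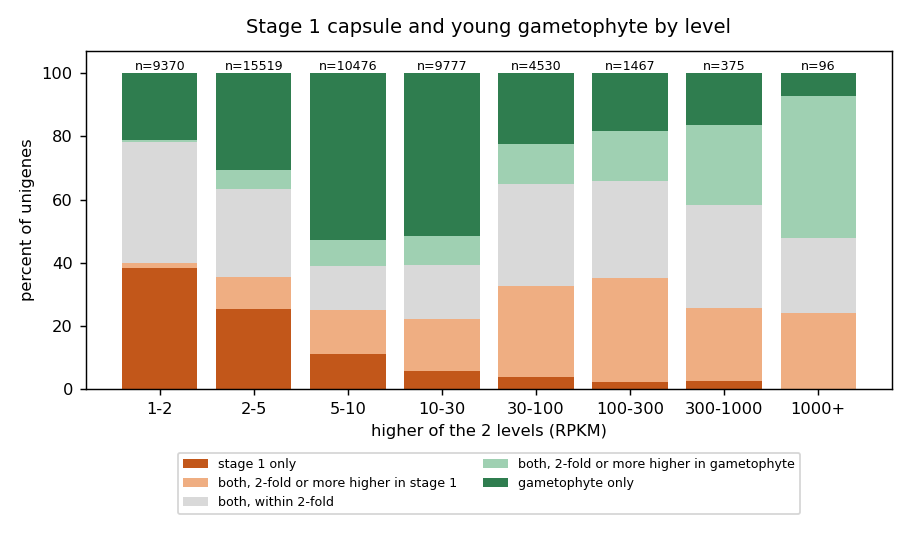
Share of unigenes (percent, vertical axis) by the higher of their 2 levels (RPKM classes, horizontal axis), with the number of unigenes above each bar. Each bar is split into stage 1 only, both with stage 1 at least 2-fold higher, both within 2-fold, both with the gametophyte at least 2-fold higher, and gametophyte only; the last makes up 52.9% at 5 to 10 RPKM and 7.29% at 1000 RPKM or more.

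The most abundant unigenes of stage 1 were largely present in the gametophyte too. The 100 highest in stage 1 lay between 611 and 12653 RPKM, with a median of 904 RPKM, and their median in the gametophyte was 506 RPKM. Of these 100, 52 were within 2-fold, 43 at least 2-fold higher in stage 1 and 5 higher in the gametophyte, 14 were at least 16-fold higher in stage 1, and 2 were not listed in the gametophyte. The 100 highest of the gametophyte were less evenly shared: their median was 1200 RPKM there and 262 RPKM in stage 1. Of them 70 were at least 2-fold higher in the gametophyte, 27 within 2-fold and 3 higher in stage 1, with 30 at least 16-fold higher and 16 not listed in stage 1. Both lists had 33 unigenes in common, that is 33% of each. Being picked as highest on 1 side favours a ratio toward that side in both lists.

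The most abundant unigene of stage 1 was CL3401.Contig3, with a recovered length of 1053 bases. Its level was 12653 RPKM in stage 1, and the later stages had 17433, 25725, 6496 and 4757 RPKM in order, against 1.24 RPKM in the gametophyte. All 5 capsule libraries were thus far above the gametophyte, and stages 2 and 3 stood above stage 1. In reads, 76633 in stage 1 faced 5 in the gametophyte, a depth-scaled ratio of 10183 with a counting interval of 4364 to 31364, and a log2 ratio of RPKM + 1 of 12.46. This unigene alone held 1.9% of the summed RPKM of stage 1. The other 2 contigs with its cluster number were on the other side of 1, at 41.1 and 9.58 RPKM in stage 1 against 57.0 and 18.8 RPKM in the gametophyte. If contigs of a cluster resemble each other, reads could be split between them in the authors' counting, so the level of a single contig is uncertain to that extent.

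Other leading unigenes of stage 1 followed different courses over the later capsules. The fifth most abundant, of 4680 bases, had 3209 RPKM in stage 1, followed by 7.99, 4.02, 11.1 and 292 RPKM in the later stages, against 1.85 RPKM in the gametophyte. Its ratio of stage 1 to gametophyte was 1739, with a counting interval of 1238 to 2527. It was thus high in stage 1 and, less so, in stage 5, with far lower levels between that were still above the gametophyte. The seventh, of 976 bases, stayed high in every capsule, with 2486, 2070, 4226, 829 and 352 RPKM in stages 1 to 5 and 0.536 RPKM, or 2 reads, in the gametophyte. The eighth, of 1169 bases, had 2264, 3311, 2368, 1810 and 589 RPKM in the capsules and 11.4 RPKM in the gametophyte, a ratio of 198 with an interval of 151 to 267. The second and the third, of 248 and 1470 bases, were abundant on both sides, at 3725 and 3439 RPKM in stage 1 against 2391 and 1238 RPKM in the gametophyte. The leading unigenes of the stage 1 capsule therefore included some high in all capsules, some high mainly in stage 1, and some high in the gametophyte as well.

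Among unigenes listed in stage 1 and not in the gametophyte, the highest was Unigene28108, of 3128 bases. Over stages 1 to 5 its levels were 840, 2.001, 2.002, 32.4 and 2795 RPKM. Its 15107 reads in stage 1 against 0 in the gametophyte put it at least 3345-fold higher in stage 1, taking 3 reads in the gametophyte library as the limit. The lower bound of its counting interval was 2721. Stage 5 was the highest capsule for it, and stages 2 and 3 were lowest. The next, of 3756 bases, had 641, 773, 1030, 453 and 220.1 RPKM over the same stages and was at least 3064-fold above the gametophyte. The third, of 2124 bases, had 510, 2.05, 0.0819, 9.40 and 834 RPKM, with high values in stages 1 and 5 and low ones between. The fourth, of 1322 bases, had 463, 0.263, 2.37, 3.33 and 35.8 RPKM. Of these 4 unigenes, 1 was above 200 RPKM in every capsule and the other 3 were below 33 RPKM in stages 2 to 4.

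The most abundant unigene of the gametophyte, of 789 bases, was also the fourth most abundant of stage 1. Its level was 21908 RPKM in the gametophyte, and the 5 capsule stages had 3407, 8201, 8287, 2933 and 1434 RPKM in order, a ratio of gametophyte to stage 1 of 6.43 with a counting interval of 6.32 to 6.54. It took 2.6% of the gametophyte's summed RPKM. The second, of 246 bases, had 6809 RPKM against 70.0 RPKM in stage 1, a ratio of 97.3 with an interval of 79.8 to 120. The third, of 261 bases, had 5246 RPKM against 512 RPKM, 10.2-fold with an interval of 9.49 to 11.1. None of these 3 was restricted to the gametophyte.

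The fourth most abundant unigene of the gametophyte, CL10049.Contig1, was listed there and in none of the 5 capsule libraries. It had a recovered length of 3121 bases, 4254 RPKM and 50741 reads, and stood at least 25455-fold above stage 1 with 3 reads as the limit. The lower bound of its counting interval was 20701. It is the only contig of its cluster number in the files. The sixth, of 271 bases, had 3588 RPKM and 3716 reads and was also listed in no capsule library, at least 1864-fold above stage 1. The ninth, of 871 bases, had 2784 RPKM and 9266 reads, at least 4648-fold above stage 1, and again no capsule value. Lengths that rest on the value of a single library can be underestimated, and their reads with them.

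Of unigenes listed in both libraries, the one standing furthest toward the gametophyte by its counting interval was Unigene10893, of 811 bases. It had 1799 RPKM in the gametophyte, 0.429 RPKM in stage 1, 0.215 RPKM in stage 3, and no value in stages 2, 4 and 5. The 5577 reads against 2 gave a ratio of 4197 with an interval of 1161 to 34663. Another of this kind, of 945 bases and the seventh most abundant of the gametophyte, had 3031 RPKM there and 1.66, 0.184, 0.921, 0 and 0.185 RPKM in stages 1 to 5, a ratio of 1830 with an interval of 964 to 4004. In both, every capsule library was below 2 RPKM. The 4 unigenes named by identifier were also run with TMM or median-ratio scaling and with pseudocounts of 0.1 or 5 RPKM. They were picked as extremes of their kind, and a pseudocount cannot turn a direction, so only the size of their ratios is of use here. Their log2 ratios ranged over these settings from 10.99 to 13.2 for CL3401.Contig3, from 7.4 to 13.04 for Unigene28108, from -11.73 to -8.38 for Unigene10893 and from -15.38 to -9.73 for CL10049.Contig1.

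As deposited, some abundant unigenes stood at nearly the same level in both generations. One of 1099 bases had 1333 RPKM on the capsule side and 1299 RPKM on the other, a ratio of 1.03 with a counting interval of 0.992 to 1.06, and lay between 774 and 2099 RPKM in the other capsules. Another, of 1363 bases, had 2174 against 1836 RPKM, a ratio of 1.18 with an interval of 1.15 to 1.21. Another again, of 1725 bases, had 1188 against 1145 RPKM, a ratio of 1.04 with an interval of 1.01 to 1.07. These were picked for ratios within 2-fold and show the even end of the range. Another abundant unigene within 2-fold, of 976 bases, had a ratio of 1.59. TMM and median-ratio scaling shift stage 1 by -0.36 and -0.41 in log2, so how even such levels are depends on scaling.

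**Figure D3:**
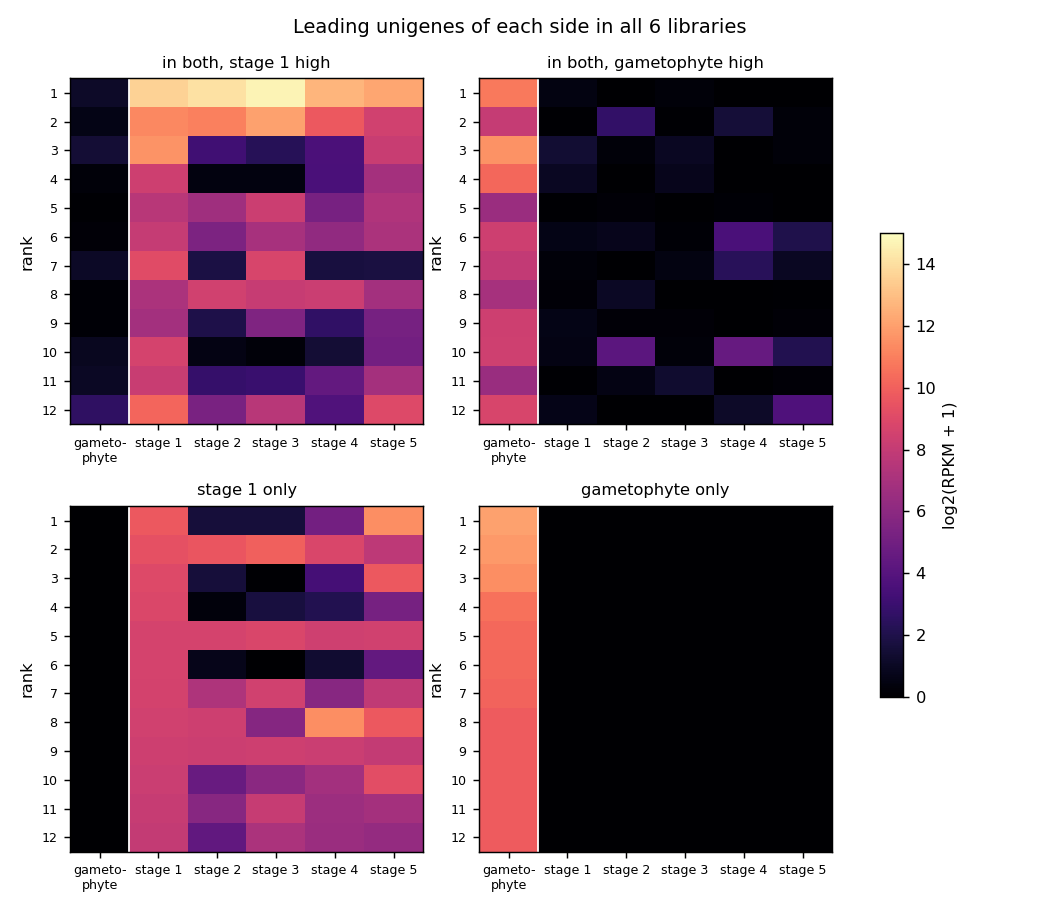
Levels as log2(RPKM + 1), by colour, in the gametophyte and capsule stages 1 to 5 (columns) for the 12 leading unigenes (rows, by rank) of 4 kinds: in both with stage 1 high, stage 1 only, in both with the gametophyte high, and gametophyte only. The first 2 kinds vary across the later capsules, with several rows high in stages 1 and 5 and low between, while the last has no value in any capsule library for its 12 rows.

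The other capsule libraries were read beside stage 1 to see whether its differences from the gametophyte extended to them. Unigenes were picked by their stage 1 and gametophyte values, so a level in other capsules below that of stage 1 is favoured by the choice. The 207 shared unigenes at least 16-fold higher in stage 1, all with 10 RPKM or more, had a median of 77.4 RPKM in stage 1 and of 15.3, 38.8, 11.5 and 34.9 RPKM in stages 2 to 5, against 1.13 RPKM in the gametophyte. The gametophyte's median is low by the choice. Of the 207, stage 1 was the highest capsule for 122 (58.9%), and 95 had at least 10% of their stage 1 level in all later capsules. Stages 2, 3, 4 and 5 were below 10% of stage 1 for 85, 49, 96 and 47 of the 207 (41.1%, 23.7%, 46.4% and 22.7%). Among the 3740 shared unigenes of 10 RPKM or more within 2-fold, stage 1 was the highest capsule for 18.6%. Of these 3740, 6.71%, 0.294%, 7.75% and 6.58% were below 10% in the same stages. Stage 3 was thus nearer to stage 1 than stages 2 and 4 were in both sets. Stage 5 was so in the 207, and in the 3740 it was close to stages 2 and 4. For 20 of the 207 the levels were below 10% in stages 2, 3 and 4 and not in stage 5. For another 20 they were below it in all later stages, the 4680-base unigene among these.

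The 773 unigenes listed in stage 1 only at 10 RPKM or more had medians of 16.7 RPKM in stage 1 and 0.612, 6.15, 0.569 and 3.08 RPKM in stages 2 to 5. Of these, 188 had at least 10% of their stage 1 level in all later capsules, 194 were below 10% in stages 2, 4 and 5 but not in stage 3, 96 were below it in stages 2 to 4 but not in stage 5, and 103 were below it in all later stages. Among the 3740 shared unigenes within 2-fold, the same counts were 3408, 206, 5 and 2. Of the 773, 29 (3.75%) were listed in no other capsule library, and 347 were listed in every one. Among the 9087 unigenes in both libraries at 10 RPKM, these counts were 29 (0.319%) and 8167. At 1 RPKM, 393 of the 9425 (4.17%) were in no other capsule library, against 1.13% of those in both. The 9425 were most often listed in stage 3, at 79.3%, followed by 71.7%, 61.3% and 54.4% in stages 5, 2 and 4. Unigenes in both libraries had the same order, at 94.5%, 84.3%, 83.0% and 79.3%, so it was not particular to those in stage 1 only. Most unigenes seen in the stage 1 capsule and not in the gametophyte were therefore seen in at least 1 further capsule library. They were so less often than unigenes in both libraries.

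On the gametophyte side no like check was possible. Its unigenes could be looked up in the other capsules, and not in a further gametophyte library. Of the 18652 unigenes in the gametophyte only, 16646 (89.2%) were listed in no other capsule library. This share and the 4.17% of the stage 1 side are therefore not like measures. At 10 RPKM this held for 6151 of 6385 (96.3%) and at 100 RPKM for 324 of 334. Absence from stage 1 was thus mostly absence from all 5 capsule libraries. The 234 shared unigenes at least 16-fold higher in the gametophyte had a median of 79.4 RPKM there and of 1.04, 3.96, 1.51, 2.19 and 1.34 RPKM in stages 1 to 5. Their highest capsule was stage 2 for 94 of them and stage 1 for 29, and stage 1 was the library on which they were picked as low.

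Recovered length separated the classes of listing. Lengths that rest on a single library can be underestimated. Of unigenes in the gametophyte only, 89.2% were listed in no capsule library, and 4.17% of those in stage 1 only were in no other capsule library. Underestimated lengths would thus fall mostly on the gametophyte only, toward the short classes. How far this shapes the shares was not tested. Of unigenes of 200 to under 300 bases, 21.7% were in both libraries, 23.6% in stage 1 only and 54.7% in the gametophyte only. Of those of 2000 to under 4000 bases, 91.6% were in both, 4.86% in stage 1 only and 3.54% in the gametophyte only. Among the 676 of 4000 bases or more, 96.2% were in both, and 2 were in the gametophyte only against 24 in stage 1 only. With 20 reads required, the shortest class still had 34.2% in both and 55.8% in the gametophyte only, and the class of 2000 to under 4000 bases 92.4% and 3.45%. Of shared unigenes of 4000 bases or more, 43.4% were at least 2-fold higher in stage 1 and 9.23% in the gametophyte, or 32.6% and 11.7% with TMM. At 300 to under 500 bases the shares were 26.5% and 14.7%, or 19.7% and 18.5% with TMM. With 20 reads required, 469 and 149 of 930 in that class were past 2-fold, or 41.8% and 19.0% with TMM. The limit of 20 reads was not scaled to depth, so stage 1, the deeper library, reaches it at a lower RPKM. Among short unigenes this filter favours those higher in stage 1. The part of read length, fragmentation or assembly in this was not tested.

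**Figure D4:**
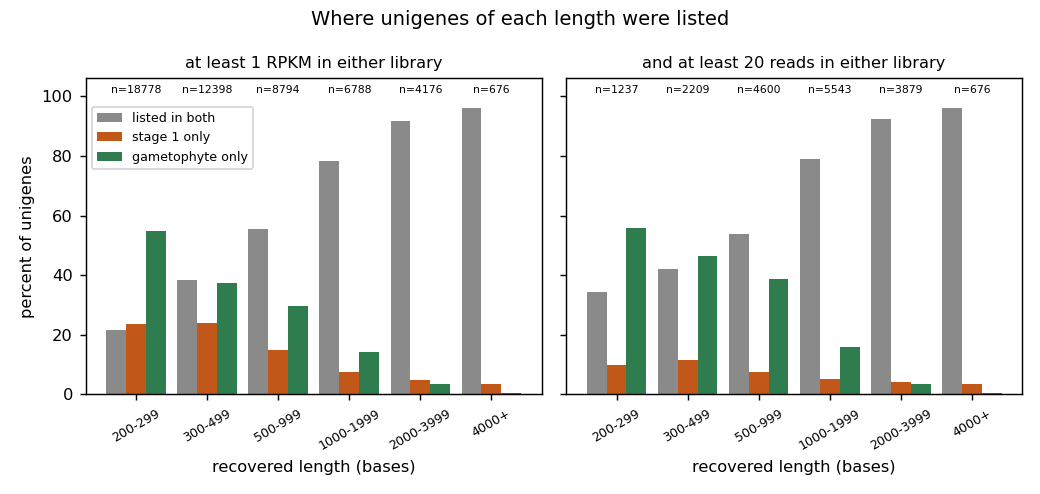
Share of unigenes (percent, vertical axis) listed in both libraries, in stage 1 only and in the gametophyte only, by recovered length (bases, horizontal axis), for all unigenes kept (left) and for those with at least 20 reads in either library (right). The share in both libraries rises from 21.7% to 96.2% with length on the left and from 34.2% to 96.2% on the right. Lengths that rest on a single library can be underestimated, which concerns mostly the gametophyte only.

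The number in the identifier also went with listing. The relation was not a steady rise. Among single unigenes, those outside a numbered cluster, 5.18% of numbers under 3000 were in the gametophyte only, then 38.3% up to 10000 and 27.9% up to 20000. Of numbers from 20000 to under 30000 the share was 4.65%, against 53.8% from there to 40000, 64.8% from there to 50000 and 78.3% of those from 50000. The share in both libraries was 81.7%, 25.4%, 16.3% and 8.26% in the last 4 blocks. With 20 reads required the gametophyte-only shares were 3.98%, 54.1% and 51.9% in the first 3 blocks and 3.44%, 76.2%, 86.9% and 71.4% in the last 4, these over 4682, 1675, 168 and 21 unigenes. How the numbers were given out is not stated in the labels or files, and the part of the assembly in the listing was not tested. Where unigenes of a given sequence were assembled from 1 source only, absence from the other library and absence of the transcript cannot be told apart.

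**Figure D5:**
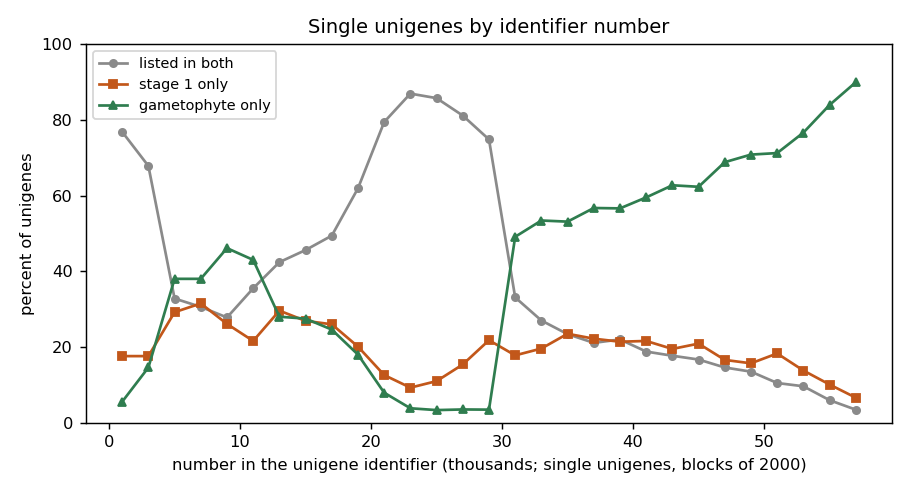
Share of single unigenes (percent, vertical axis) listed in both libraries, in stage 1 only and in the gametophyte only, in blocks of 2000 identifier numbers (horizontal axis, numbers divided by 1000). The gametophyte-only share is low between 20000 and 30000, at 4.65% over that range, and reaches 78.3% over the numbers from 50000.

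Contigs with the same cluster number did not always lie on the same side. Of the 2774 clusters with 2 or more contigs kept, 380 (13.7%) had every contig at least 2-fold higher in stage 1 and 530 (19.1%) every contig higher in the gametophyte, while 318 (11.5%) had none past 2-fold. In 123 of the 380 and 331 of the 530, all contigs kept were listed on that side only and pass the fold by construction, so the larger count of the gametophyte rests on such clusters. In 438 (15.8%) at least 1 contig was 2-fold higher on each side, and in 90 (3.24%) this held at 4-fold. Over 1104 clusters with at least 2 contigs of 20 reads, the range of log2 ratios within a cluster had a median of 1.84. For scale, the quartiles of the log2 ratio over shared unigenes with 20 reads lay 1.91 apart, which is a different measure of spread. Of 2330 clusters with at least 20 reads in each library, the contig with the most reads differed between the libraries in 218 (9.36%). Whether such contigs are forms of 1 gene, related genes or alleles is not given in the sources used here. Adding up the contigs of each cluster gave 6361 entries higher in stage 1 and 3841 higher in the gametophyte, 8875 in stage 1 only and 16594 in the gametophyte only.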

How the data were processed

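Whole transcriptomes were sequenced from total RNA on an Illumina HiSeq platform, per the labels' protocols and the design text. Values deposited by the authors are RPKM, per the file headers, for 1 library per sample, and a dash was read as 0. The identifiers name a joint assembly of seedlings and capsules. Assembler, aligner, counting rule, strand and the treatment of reads with several matches are stated in neither labels nor headers.

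The whole reads behind each RPKM value were worked back here. Library totals came from the steps between low values, and each unigene was given the smallest whole length between 200 and 15000 bases at which all its values were whole reads within 0.9 of the last digit. Lengths were found for all 74566 unigenes, and recovered reads summed to 99.6% of the stage 1 total and 96.1% of the gametophyte total. A multiple of a total gives whole reads too, and the smallest was taken. Lengths and reads that rest on 1 library can be underestimated.

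Unigenes that reached 1 RPKM on either side were compared as the ratio of RPKM + 1, and again at 10 RPKM. With 1 library a side no test was run, and the count tests that need replicates were not applicable. Intervals are exact 95% Clopper-Pearson intervals of the read ratio given both totals, and a value of 0 was set at a limit of 3 reads per library. The intervals cover counting error only, and where 1 side is 0 their bound lies below the fold given with the limit of 3 reads. TMM and median-ratio factors were computed from the recovered reads of unigenes in both libraries. Stage 1 was thinned with a seeded binomial draw. Scripts were tested on simulated data.

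Identifiers are printed for 4 unigenes: the one in both libraries, with at least 10 RPKM in either, whose interval had the highest lower bound, the one with the lowest upper bound, and the most abundant unigene in each library not listed in the other. Others are described by rank. The comparison and these rules were chosen with earlier results of these data known. Python 3.11.15, pandas 2.3.3, numpy 2.4.6, scipy 1.17.1 and matplotlib 3.10.9 were used.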

Additional observations from a re-analysis of the deposited data

How the results depend on the processing

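Counts and shares of the gametophyte only stayed above those of stage 1 only in every alternative run. Shared unigenes higher in stage 1 stayed more numerous, except with median-ratio scaling. It gave 4806 higher in stage 1 and 5112 in the gametophyte, and it set the median ratio to 0. Scaling does not alter listing, and a pseudocount does not alter which side of a unigene is higher, so not every run could turn every value. Sizes moved as follows. Counts of shared unigenes higher in stage 1 and in the gametophyte were 3451 and 1883 with a pseudocount of 5 RPKM, 3511 and 1836 at a minimum of 10 RPKM, 2060 and 1383 at 4-fold, and 3354 and 1927 with the counting interval beyond 2-fold. Counts in stage 1 only and in the gametophyte only were 773 and 6385 at 10 RPKM and 1210 and 4510 with 20 reads. With no minimum they were nearer each other, at 16073 and 20001. Chosen after seeing the data, a length of at least 500 bases gave 2318 shared unigenes higher in the gametophyte, 2029 in stage 1 only and 3726 in the gametophyte only, and thinning with 20 reads gave 795 and 4571.

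The median log2 ratio of shared unigenes was 0.402 and 0.177 with pseudocounts of 0.1 and 5 RPKM, 0.592 at 10 RPKM, 0.239 with no minimum, 0.037 with TMM, 0.0 with median ratios, 0.297 with contigs added up and 0.479 at 500 bases. Shares of summed RPKM in stage 1 only and gametophyte only were 4.09% and 26.3% at 10 RPKM, 8.45% and 33.4% with no minimum, 8.07% and 33.8% after thinning, and 4.22% and 16.7% in reads. Of the 50 most abundant unigenes 8 were in both lists, and of the 200 most abundant 83. The causes of these moves were not tested beyond what each setting changes by its construction. No paired analysis was possible because each group has 1 library, so no library could be left out either. Depth limits the low end: 3 reads on 1 kb are 0.522 RPKM on the capsule side and 0.785 RPKM on the other.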
